A study of Mus musculus with 4 samples.

Results

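Transcripts of oxidant and metal handling were followed in cultured mouse aortic endothelial cells that overexpress human catalase: Mt1 and Mt2, which encode metallothioneins, and Msrb1, which encodes a methionine sulfoxide reductase and carries its older symbol Sepx1 in the files. They are the 3 probe sets under these symbols among the 398 of the authors' deposited table. They were joined by probe set number to the 35557 transcript clusters (groups of probes summarised as a single value) of the series value table. Shares and ranks over all clusters include the 6636 lowest-numbered clusters, which are numbered below every probe set of the authors' table. What those clusters measure was not analysed here. By the authors' own folds, every probe set of their table differed at least 2-fold between the genotypes in the same direction in both array pairs. The smallest absolute fold was 2.004. The genotype difference of these genes therefore chose them, and it is given as a description without a test.

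The cells were of the C57BL/6J strain, and the wild type and hcatTg groups, the latter overexpressing human catalase, had 2 Affymetrix Mouse Gene 1.0 ST arrays each. Both groups were grown to 80% confluence, rested for 12 h in medium without serum, and returned to 10% fetal bovine serum for another 12 h. The labels call the RNA samples independent. The labels do not state the age of the mice, the promoter that drives the human catalase gene, or whether the cultures came from separate animals, so the spread between samples may be technical. The authors' table sets the first arrays of the genotypes against each other as a first time and the second arrays as a second time, and these are called array pairs here. The labels do not state what the times stand for.

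Catalase breaks down hydrogen peroxide, mainly in peroxisomes. Metallothioneins are small cysteine-rich proteins that bind zinc and copper and also react with oxidants, and their genes are switched on by the zinc-sensing transcription factor MTF-1 and by glucocorticoids and oxidative stress. Msrb1 is a selenoprotein that reduces oxidised methionine in proteins and so repairs a form of peroxide damage. Hydrogen peroxide itself was not analysed here.

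Mt1 and Mt2 lie beside each other on chromosome 8, in the order Mt4, Mt3, Mt2 and Mt1 among the protein-coding genes of the RefSeq table, and neither Mt3 nor Mt4 is named in the authors' table. Msrb1 lies on chromosome 17. The 250 bases before the RefSeq start of the metallothionein genes (build GRCm38.p6, RefSeq) are printed because MTF-1 acts through short metal response elements at these genes. Mt1 is at chr8:94178839-94179088 and Mt2 at chr8:94172368-94172617, both on the plus strand. Capitals mark the element's core, searched as TGCACNC or TGCGCNC on both strands.
Mt1: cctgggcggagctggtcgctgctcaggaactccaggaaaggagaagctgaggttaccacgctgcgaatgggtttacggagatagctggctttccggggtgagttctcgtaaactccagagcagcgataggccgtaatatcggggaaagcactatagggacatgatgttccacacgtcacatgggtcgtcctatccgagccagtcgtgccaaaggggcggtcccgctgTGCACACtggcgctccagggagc
Mt2: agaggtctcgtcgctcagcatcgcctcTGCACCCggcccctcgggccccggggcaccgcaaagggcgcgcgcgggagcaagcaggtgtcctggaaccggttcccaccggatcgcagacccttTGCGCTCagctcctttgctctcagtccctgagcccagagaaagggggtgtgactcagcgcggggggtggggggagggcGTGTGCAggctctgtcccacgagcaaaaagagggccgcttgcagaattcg

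The Mt2 window held 3 such cores, starting 223, 128 and 50 bases before the gene's start, the last of them on the minus strand. The Mt1 window held 1, starting 23 bases before the start, and the Msrb1 window held 0. These counts depend on where the annotated start falls: with the next 50 bases after it included, a window added after seeing the data, Mt1 held 3, Mt2 4 and Msrb1 0, against 1.97% of all windows with at least 3. Bases farther downstream were not searched. Among all 32851 windows of 250 bases, 21.4% held at least 1 core and 1.26% held at least 3. Among the 325 windows of genes that the authors' table lists as lower, several windows being given for some genes, 22.5% held at least 1 and 2.15% at least 3. The core of the antioxidant response element, searched as TGACNNNGC on both strands, occurred in the Mt2 window as TGACTCAGC, 79 to 71 bases before the start. It was in 10.2% of all windows, and in the Mt1 and Msrb1 windows it had 0 matches. This core was counted in the 250-base windows only, without the 50 bases after the start. Its counts too depend on where the annotated start falls, so a difference between Mt1 and Mt2 is not shown. These matches describe the letters in the windows and do not show binding, which was not measured.

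All 3 transcripts were lower in hcatTg than in wild type cells in both array pairs, and Mt2 differed most. The mean log2 difference, hcatTg minus wild type, was -2.70 for Mt2, -1.47 for Mt1 and -1.24 for Msrb1, which is 6.50-fold, 2.76-fold and 2.37-fold lower. At least 2-fold lower in both pairs were 419 of all 35557 clusters, which is 1.18%, and since the members were chosen by this contrast nothing is read from that share. In the authors' deposited table, 305 of the 398 probe sets were lower in hcatTg. By the average fold of that table, Mt2 stood 38th, Mt1 172nd and Msrb1 257th among those 305, counted from the largest.

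Mt2 had log2 signals of 8.93 and 11.60 on the first and second wild type arrays and of 6.57 and 8.56 on the first and second hcatTg arrays. Both hcatTg arrays lay below both wild type arrays, with 0.37 log2 units between the lower wild type and the higher hcatTg value. The mean was 10.27 ± 1.89 over the wild type arrays and 7.57 ± 1.41 over the hcatTg arrays (SD, n = 2 each). In the first pair the difference was -2.36 log2 units and in the second -3.04, 5.14-fold and 8.23-fold lower. The pair differences had an SD of 0.48 (n = 2 pairs), and the standard error without the pairing was 1.66 (n = 2 arrays per genotype), both given as descriptions only. The pair differences of Mt2 ranked 78th and 40th from the lowest of all 35557 clusters.

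Mt1 had log2 signals of 9.37 and 11.13 on the first and second wild type arrays and of 7.88 and 9.69 on the corresponding hcatTg arrays. The groups overlapped, because the second hcatTg array lay 0.32 log2 units above the first wild type array, although hcatTg was the lower array in each pair. The mean was 10.25 ± 1.24 over the wild type arrays and 8.79 ± 1.28 over the hcatTg arrays (SD, n = 2 each). In the first pair the difference was -1.49 and in the second -1.44, so the pairs differed from each other by 0.05 log2 units. These differences ranked 537th and 316th from the lowest of all clusters.

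Msrb1, the repair enzyme, had log2 signals of 9.46 and 11.06 on the first and second wild type arrays and of 8.07 and 9.96 on the corresponding hcatTg arrays. Here too the groups overlapped, the second hcatTg array lying 0.50 log2 units above the first wild type array. The mean was 10.26 ± 1.13 over the wild type arrays and 9.02 ± 1.34 over the hcatTg arrays (SD, n = 2 each). In the first pair the difference was -1.39 and in the second -1.10, 2.62-fold and 2.15-fold lower. Of the 3 genes it lay nearest to the 2-fold bound of the authors' table. In the value table, whose first-pair folds are not those of the authors' table, 71 clusters were 2-fold to 2.1-fold lower in the weaker pair. There 74 clusters were 1.9-fold to 2-fold lower.

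**Figure D1:**
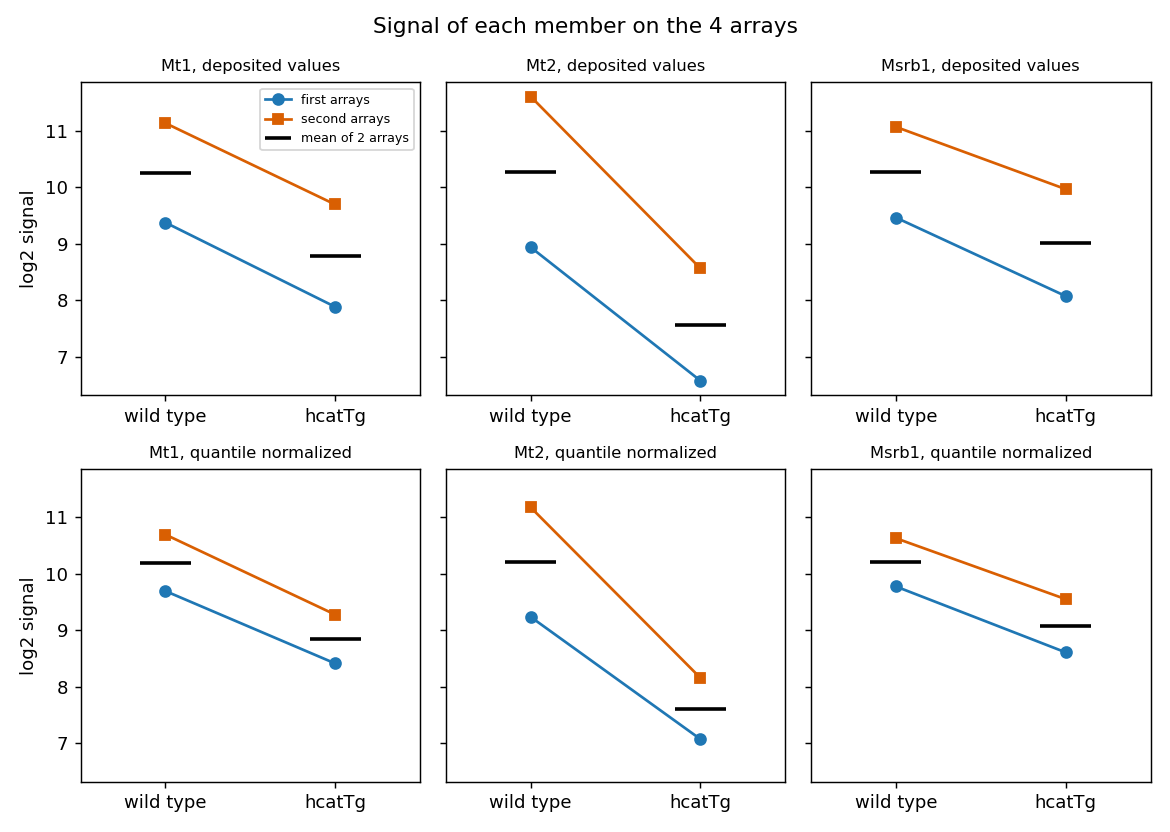
Log2 signal of Mt1, Mt2 and Msrb1 on each of the 4 arrays, with deposited values in the upper row and quantile normalized values in the lower row; lines join the arrays of a pair and black bars are means of 2 arrays. Every line falls from wild type to hcatTg, and on the deposited values the second hcatTg array lies above the first wild type array for Mt1 (9.69 against 9.37) and Msrb1 (9.96 against 9.46).

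The size of the difference was not the same for the neighbouring metallothionein genes. The Mt2 difference exceeded that of Mt1 by 0.87 log2 units in the first pair and by 1.60 in the second. Mt1 and Msrb1 lay closer, with Mt1 lower by 0.10 more in the first pair and by 0.34 more in the second. With 1 value per pair and gene these gaps were not tested.

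**Figure D2:**
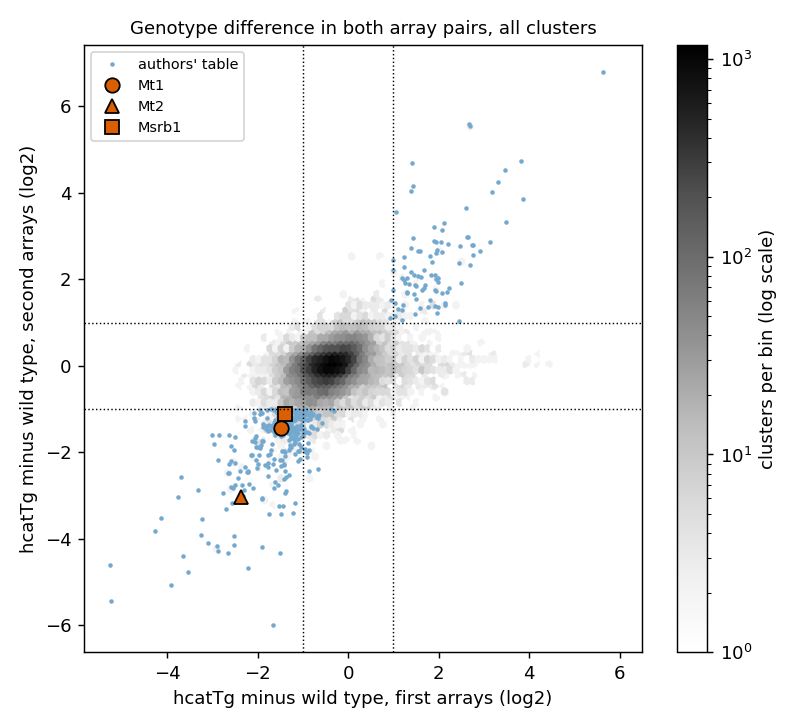
Log2 difference, hcatTg minus wild type, between the first arrays (x axis) and the second arrays (y axis) for all 35557 clusters (grey bins), the 398 probe sets of the authors' table (blue) and the 3 genes (orange); dotted lines mark 2-fold. Mt2 (-2.36, -3.04) lies well inside the lower left corner, and Msrb1 (-1.39, -1.10) lies near its edge.

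The arrays had not been brought to a common distribution, and whether the groups overlapped changed with the normalization. The median difference of all clusters was -0.37 log2 units in the first pair and 0.01 in the second, and the first-pair differences of the 3 genes include this shift. After quantile normalization the differences in the first and second pair were -2.16 and -3.02 for Mt2, -1.28 and -1.42 for Mt1, and -1.17 and -1.08 for Msrb1. On that scale both hcatTg arrays lay below both wild type arrays for all 3 genes, by 1.08 log2 units for Mt2, 0.42 for Mt1 and 0.22 for Msrb1. Of all clusters, 13% had both hcatTg arrays below both wild type arrays after quantile normalization, against 17.8% on the deposited values. The 3 genes were chosen for being lower in both pairs, so these shares of all clusters are no like-for-like comparison. Among the 305 lower probe sets of the authors' table, 247 (81%) were separated on the deposited values, where Mt1 and Msrb1 overlapped. When the 6636 lowest-numbered clusters were dropped before normalizing by quantiles, 286 of the 305 (93.8%) were separated. Centring each array on its median left an overlap of 0.06 for Mt1 and 0.25 for Msrb1, and 10.8% of all clusters were then separated in this direction.

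The unpaired means depended on single arrays, because the second arrays lay above the first. Without the first wild type array the difference was -2.34 for Mt1, -4.03 for Mt2 and -2.05 for Msrb1, and without the second hcatTg array it was -2.37, -3.69 and -2.19. Without the second wild type array it was -0.59, -1.37 and -0.44, and without the first hcatTg array -0.56, -1.71 and -0.30. The sign stayed negative for all 3 genes whichever array was left out. Since the genes were chosen for being lower in both pairs of these arrays, nothing is read from that sign.

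The first arrays were deposited in a further version, as RMA signals (robust multi-array average, a summary over probes) in the authors' table, and the genotype difference was close in both. In the authors' deposited table Mt1 had signals of 10.39 in wild type and 8.82 in hcatTg, which that table gives as 2.98-fold lower. Mt2 had 9.48 and 7.22 there (4.81-fold), and Msrb1 had 10.45 and 9.03 (2.67-fold). The levels themselves were higher than in the value table: by 1.02 and 0.94 log2 units for Mt1 in wild type and hcatTg, by 0.55 and 0.64 for Mt2, and by 0.99 and 0.96 for Msrb1. Over the 398 probe sets, the authors' deposited table lay above the value table by a median of 0.80 in wild type and 0.67 in hcatTg. With the authors' signals in place of the first arrays, the lower wild type value exceeded the higher hcatTg value by 0.70 for Mt1, 0.93 for Mt2 and 0.48 for Msrb1. These last values set levels across tables that were normalized separately.

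**Figure D3:**
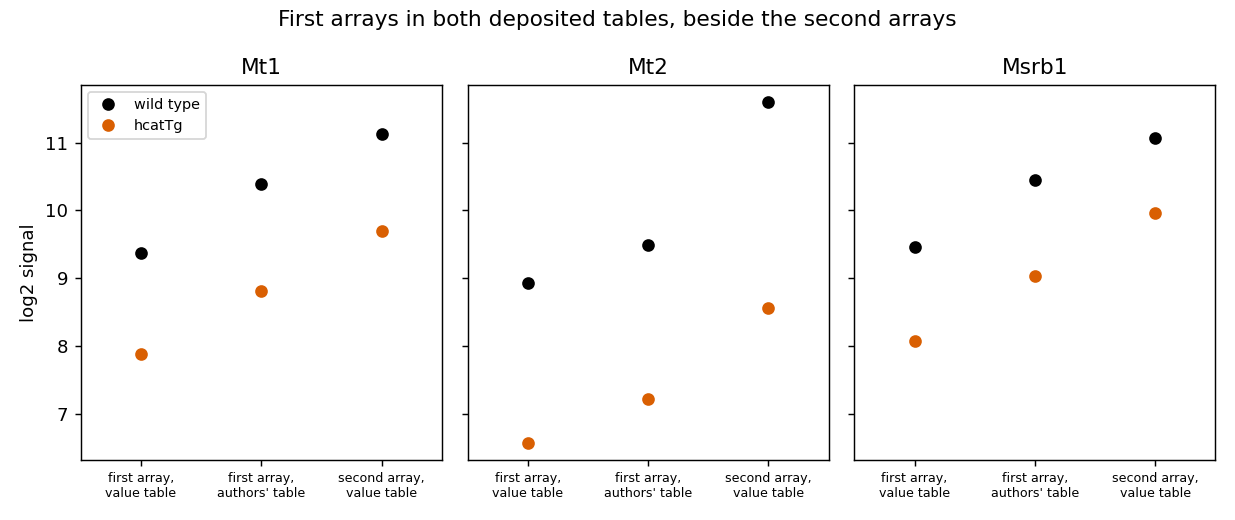
Log2 signal of the first arrays in the value table and in the authors' table, and of the second arrays in the value table, for wild type (black) and hcatTg (orange). Within each version hcatTg lies below wild type, and the authors' signals of the first arrays lie above those of the value table, by 0.55 to 1.02 log2 units.

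All 3 genes were also higher on the second than on the first array of each genotype, a contrast that the choice of genes did not use but that shares its arrays. Mt2 was higher on the second array by 2.67 log2 units in wild type and 1.99 in hcatTg. For Mt1 the values were 1.76 and 1.81, and for Msrb1 they were 1.61 and 1.89. For Mt1 and Msrb1 the gap between the arrays of a genotype was thus larger than the gap between the genotypes on the deposited values. At least 2-fold higher on the second array in both genotypes were 12.8% of all clusters and 31.4% of the authors' 398 probe sets, against medians over all clusters of 0.21 in wild type and 0.60 in hcatTg. After quantile normalization 2.74% of clusters were, Mt2 (1.94 and 1.08) among them. Mt1 (1.00 and 0.86, the first just under 2-fold) and Msrb1 (0.85 and 0.94) were not. On that scale the gap between the genotypes was the larger for Mt1 and Msrb1, with mean differences of -1.35 and -1.12.

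**Figure D4:**
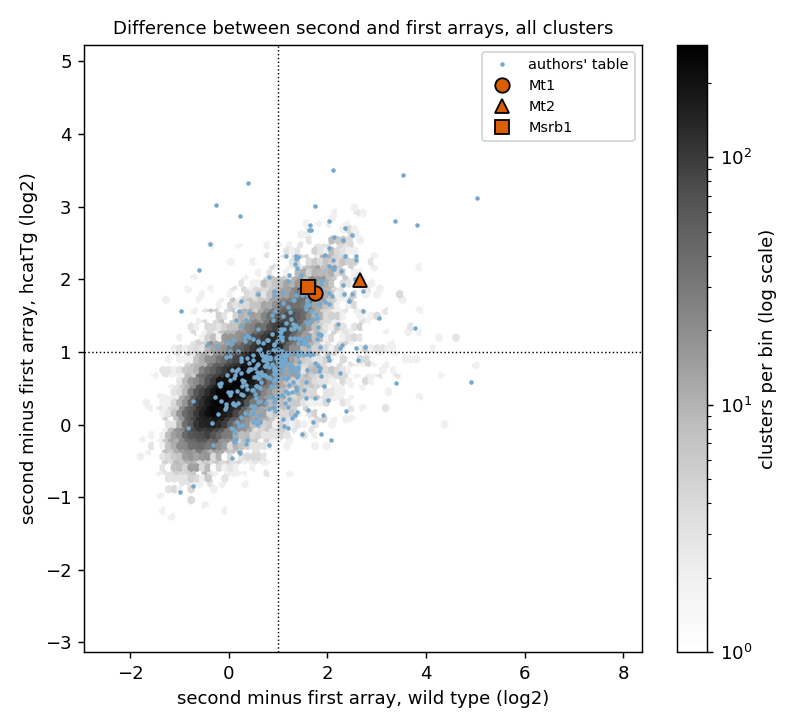
Log2 difference, second minus first array, in wild type (x axis) and hcatTg (y axis) for all clusters (grey bins), the authors' 398 probe sets (blue) and the 3 genes (orange), on deposited values; dotted lines mark 2-fold. The 3 genes lie above 2-fold on both axes, with Mt2 farthest to the right at 2.67.

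On each array the 3 genes were among the brighter clusters, except Mt2 in hcatTg. In wild type the Mt2 signal exceeded 88.3% of all clusters on the first array and 96.7% on the second, and in hcatTg it exceeded 66.3% and 78.3%. The Mt1 signal exceeded 91.2% and 95.5% in wild type and 80.9% and 88.6% in hcatTg. The Msrb1 signal exceeded 91.6% and 95.4% in wild type and 82.8% and 90.4% in hcatTg. Background levels were not analysed here, and these shares describe brightness on the array and not transcript numbers.

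Of 109 genes on 7 lists of metal, selenium and oxidant handling and of glucocorticoid response, 7 were named in the authors' table, all lower in hcatTg. That table names 1.12% of all clusters, 0.858% as lower, and 76.6% of its probe sets were lower. Besides the 3 genes these were Slc39a14, Selenop, Dio3 and Sgk1. The table was selected on these arrays, so these counts describe it, and a gene that it does not list is not shown to be unchanged. Of the 28 genes of metal response and of zinc or copper transport, 1 was named: Slc39a14, which encodes a membrane importer of zinc, iron and manganese. Its log2 signals were 9.14 and 10.22 in wild type and 7.67 and 8.68 in hcatTg, so its groups did not overlap, and its pair differences were -1.47 and -1.54.

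Of the 28 genes for selenoproteins and their synthesis, a list that leaves out Msrb1, 2 were named. Selenop, which encodes the secreted selenium transport protein, differed by -1.10 and -1.20 log2 units in the first and second pair, and its groups overlapped (5.91 and 9.45 in wild type, 4.81 and 8.24 in hcatTg). Dio3, which encodes the deiodinase that inactivates thyroid hormone and is also an imprinted gene, had signals of 6.72 and 7.64 in wild type and 4.01 and 4.33 in hcatTg, differing by -2.71 and -3.31 without overlap. Among the 4 methionine sulfoxide reductase genes, Msrb1 alone was named, and among the 4 metallothionein genes Mt1 and Mt2. Of the 7 glucocorticoid-induced genes, 1 was named: Sgk1, a serum- and glucocorticoid-regulated kinase gene, at 10.17 and 10.64 in wild type and 8.88 and 9.36 in hcatTg. The 26 genes for hydrogen peroxide removal, thiol and other antioxidant functions had 0 named members, as did the 12 genes for oxidant sources. Catalase itself is on the first of these lists, and the level of its transcript was not analysed here. That first list leaves out the glutathione S-transferase gene Mgst1, which the authors' table names and which differed by -1.37 and -1.09 log2 units.

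The named genes whose pattern was most like each member were found by the Euclidean distance, in log2 units, between values over the 4 arrays after subtracting each gene's own mean. For Msrb1 the nearest was Mgst1, which encodes a microsomal glutathione S-transferase, at a distance of 0.04, closer than any other of the 35557 clusters. Mgst1 differed by -1.37 and -1.09 log2 units in the first and second pair. Hspb1, a small heat shock protein gene, followed at 0.11, and then Fst, Smarca2 and Mid2 at 0.19 to 0.21.

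For Mt1 the nearest was Slc7a7, a cationic amino acid transporter gene, at 0.08, again closer than any other cluster. Dclk1 (0.12), Adamts5 (0.15), Col4a6 (0.19) and Palm2 (0.19, now Pakap in RefSeq) followed. Msrb1 stood 10th among the named genes in likeness to Mt1, at 0.25, and Mt2 stood 224th, at 1.398. For Mt2 the nearest were Tmem47 (0.36), Ephx2, an epoxide hydrolase gene (0.37), Sfrp1 (0.46), Cnn1, the smooth muscle calponin gene (0.63), and Wisp2 (0.68, now Ccn5). The distance weighs the size of a difference as well as its direction. It was taken on the deposited values, so it also counts the rise from the first to the second arrays. Of the authors' 398 probe sets, 31.4% rose at least 2-fold in both genotypes. Whether genes near in distance are regulated together was not tested. The named genes were all selected for the genotype difference, so some likeness follows from that selection.

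**Figure D5:**
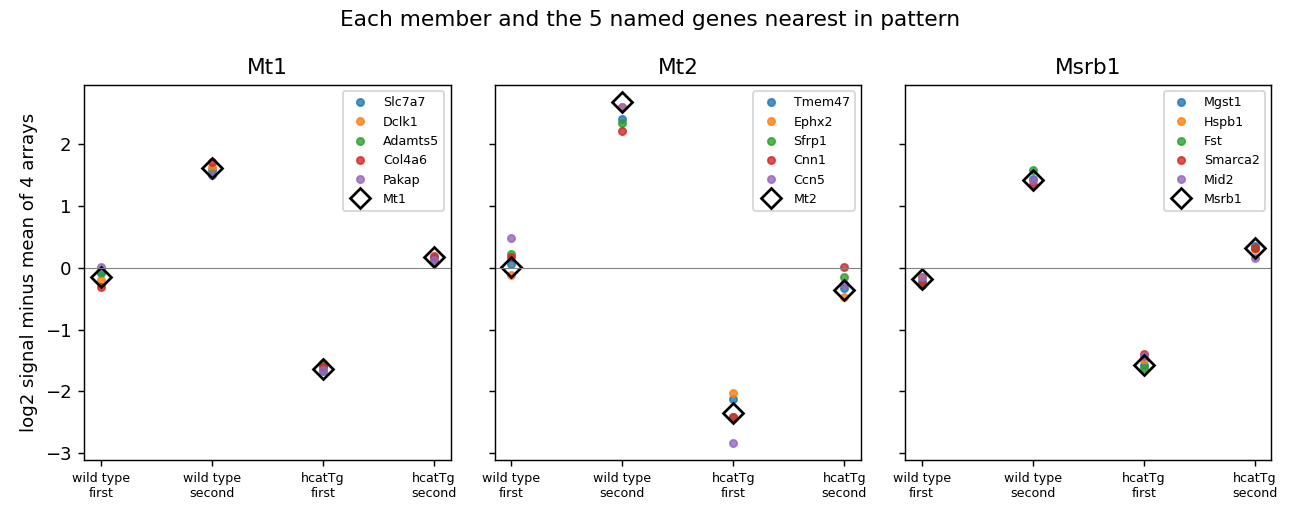
Log2 signal minus the gene's mean over the 4 arrays, for each of the 3 genes (open diamonds) and the 5 named genes nearest to it (dots). The Msrb1 and Mt1 sets lie within 0.21 of their member in distance, and the Mt2 set lies at 0.36 to 0.68.

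Other named genes also differed between the genotypes. Xist, which is expressed from the inactive X chromosome of female cells, was higher in hcatTg by 5.62 and 6.79 log2 units in the first and second pair, so the genotype difference of each gene given here cannot be told apart from one of sex. The marker counts that follow are of genes named in the authors' table, which names 1.12% of all clusters. The marker lists were chosen with earlier results of these data known, so nothing is read from these counts against that share. The summed signals cover only the named markers, which were selected for differing between the genotypes, and the other markers were not read. Nothing about cell makeup is therefore read from the sums. Of 7 smooth muscle markers, 4 were named, all lower, and the log2 of their summed signal was 8.80 and 11.16 in wild type and 7.15 and 8.50 in hcatTg. Of 7 fibroblast markers, 1 was named, Fbln1, at 8.24 and 10.50 in wild type and 6.69 and 7.74 in hcatTg. All 4 mesothelial markers were named, Upk1b and Msln higher and Upk3b and Wt1 lower, with summed signals of 10.59 and 10.90 in wild type and 10.43 and 9.92 in hcatTg. Of 6 macrophage and leukocyte markers 3 were named, with summed signals of 7.55 and 8.72 in wild type and 8.42 and 9.38 in hcatTg. The higher sum in hcatTg came from Cd53 alone (8.25 and 9.27 there), while Lyz2 differed by -1.93 and -1.84 and Lcp1 by -1.44 and -3.23. Of 11 endothelial markers 2 were named: Kdr was higher by 1.05 and 3.57, and Eng differed by -1.17 and -1.44. Their summed signal was 9.66 and 10.18 in wild type and 8.78 and 9.49 in hcatTg. In wild type Kdr had signals of 5.63 and 4.67, below the array medians of 5.75 and 6.02. This log2 scale has no true 0, and the lowest value of a named marker was 3.63. The part of cell makeup in the differences of Mt1, Mt2 and Msrb1 was not tested, and in bulk RNA fewer cells of a type and less RNA per cell cannot be told apart.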

How the data were processed

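The authors deposited log2 signals of 4 arrays for 35557 transcript clusters, and a table of 398 selected probe sets with log2 RMA signals of the first arrays, a linear ratio and signed fold changes, per the file headers. Those signed folds were treated as a score, because in the authors' deposited table a negative fold stands for wild type over hcatTg. Per the submitters' processing notes the tool was Affymetrix Expression Console. Its version, the probe annotation and the genome build were not given in the sources used. The value table was taken as log2 because the authors' second folds, in log2, match the differences between the second arrays within 9e-05.

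Names came from the authors' table, 385 of 398 accessions being matched to RefSeq. Differences are hcatTg minus wild type on the deposited values, computed in Python 3.11.15 with pandas 2.3.3 and numpy 2.4.6. The fold count was run on simulated data with far less spread than these arrays, which checks the counting only. The array pairs follow the authors' first and second time. Deviations from the genotype mean in arrays of a pair had r = 0.689 over all clusters on the deposited values, and clusters are no replicates. The arrays had not been brought to a common distribution, so this r does not show what the arrays of a pair share. The number of arrays limits the precision, and their spread may be technical. The limma test planned for pathway genes outside the 3 members was not run, because it needed a probe annotation, not used here. The genes named are the members, the 5 named genes nearest in pattern to each, and list members (up to 3 a list). The members and lists were chosen with earlier results of these data known.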

Additional observations from a re-analysis of the deposited data

How the results depend on the processing

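Mt1, Mt2 and Msrb1 were lower in hcatTg under every setting run: quantile normalization, median centring, the replicate block, the authors' signals for the first arrays, leaving out each array, and, chosen after seeing the data, quantile normalization without the 6636 lowest-numbered clusters. These genes were chosen for being lower in both pairs of the same arrays, so the kept sign is no independent support and only the sizes are described. Median centring gave the smallest difference of the settings that kept all 4 arrays, -1.28 for Mt1, -2.52 for Mt2 and -1.06 for Msrb1. Leaving out an array gave -2.37 to -0.56 for Mt1, -4.03 to -1.37 for Mt2 and -2.19 to -0.30 for Msrb1. With the array pair as a replicate block the differences are by construction those of the deposited values (-1.47, -2.70 and -1.24). There the standard error was 0.03 for Mt1, 0.34 for Mt2 and 0.14 for Msrb1 against 1.26, 1.66 and 1.24 without the block (n = 2, not moderated). The error with the block also depended on the scale. It was 0.07, 0.43 and 0.04 in the same gene order on quantile normalized values. Centring each array on its median gave 0.14, 0.51 and 0.02. It was thus larger on both scales for Mt1 and Mt2, and smaller for Msrb1. The count of 419 clusters at least 2-fold lower in both pairs was 267 after median centring, 282 after quantile normalization, 1370 at 1.5-fold and 110 at 3-fold. It has no value with an array left out, since a pair is then broken. The planned limma alternatives for other pathway genes were not run, for want of a probe annotation. Whether a signal exceeded background was not analysed here, which matters most for the lowest value, that of Mt2 on the first hcatTg array (6.57).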
